A study of Mus musculus with 19 samples.

Results

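Interferon-stimulated genes (ISGs) were followed in the livers of mice that had received a vector, or no vector. The members are 48 ISGs listed by name, 36 taken as targets of type I interferon (the type I set) and 12 taken as targets of interferon-gamma (the interferon-gamma set). Of the 48, 47 had a row among the 31053 genes counted, and *Mx2* was not analysed here. The list was not chosen on the counts of these libraries, although earlier results from the same data were known.

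RNA was sequenced from livers of male C57BL/6 mice aged 6 to 8 weeks at the start, in 3 groups. The vehicle group (n = 5 libraries) received PBS and no vector. The AAV-GFP group (n = 7) received thioacetamide (TAA), a hepatotoxin that causes fibrosis, at rising doses for 12 weeks, and after 10 weeks an AAV8 vector for eGFP. The AAV-miR-34b/c group (n = 7) received the same TAA course and, at the same time, AAV8 vectors for miR-34b and miR-34c. Both transgenes were driven by the TBG promoter, which is active in hepatocytes, and livers were taken 4 weeks after the vector. Because TAA and vector were given to the same mice, the effects of either against vehicle cannot be told apart. AAV-miR-34b/c against AAV-GFP compares transgenes in mice that all had TAA and an AAV8 vector.

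Type I interferons act through the receptor IFNAR and the factor ISGF3, which contains STAT2 and IRF9 and binds the interferon-stimulated response element (ISRE) in promoters. Interferon-gamma acts through a receptor of its own and the gamma-activated site (GAS) in promoters, and induces IRF1, GTPases of the GBP and IRG families and the immunoproteasome. ISGs are read as a trace of interferon signalling, and sensing of a vector genome or of its RNA is one known way to switch them on.

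The promoter windows of 4 members that were called in a comparison below are shown, chosen because they hold an ISRE core, the letters through which type I interferons act. RefSeq windows (GRCm38.p6) were found for 37 of the 48 members. Each printed run is the 250 bases before the RefSeq start site, 5′ to 3′ on the strand of the gene, with capitals for each match to the ISRE core GAAANNGAAA or to the GAS core TTCNNNGAA on either strand. The positions are chr12:26456453-26456702 (minus strand) for *Rsad2*, chr8:71537473-71537722 (minus strand) for *Bst2*, chr19:34583279-34583528 (plus strand) for *Ifit3* and chr19:34607707-34607956 (plus strand) for *Ifit3b*.

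Rsad2: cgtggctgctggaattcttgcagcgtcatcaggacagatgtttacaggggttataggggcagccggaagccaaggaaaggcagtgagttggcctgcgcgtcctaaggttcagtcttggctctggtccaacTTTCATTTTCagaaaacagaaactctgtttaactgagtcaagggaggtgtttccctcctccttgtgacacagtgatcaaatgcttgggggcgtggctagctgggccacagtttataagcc
Bst2: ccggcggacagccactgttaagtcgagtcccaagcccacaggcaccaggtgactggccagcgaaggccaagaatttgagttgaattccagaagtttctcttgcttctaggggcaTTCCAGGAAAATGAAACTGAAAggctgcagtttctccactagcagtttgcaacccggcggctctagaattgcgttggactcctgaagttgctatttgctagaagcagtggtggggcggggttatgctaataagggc
Ifit3: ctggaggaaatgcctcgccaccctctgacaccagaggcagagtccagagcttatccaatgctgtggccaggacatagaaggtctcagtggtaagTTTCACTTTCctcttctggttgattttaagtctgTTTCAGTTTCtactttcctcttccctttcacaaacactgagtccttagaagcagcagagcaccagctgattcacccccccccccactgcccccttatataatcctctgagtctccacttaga
Ifit3b: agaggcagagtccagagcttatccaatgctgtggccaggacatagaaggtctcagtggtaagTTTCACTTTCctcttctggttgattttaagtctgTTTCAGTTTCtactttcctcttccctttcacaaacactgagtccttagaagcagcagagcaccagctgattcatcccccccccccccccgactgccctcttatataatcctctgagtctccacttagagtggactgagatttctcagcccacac

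The windows of *Ifit3* and *Ifit3b* each held 2 ISRE cores, *Bst2* held 2 and a GAS core that overlapped one of them, and *Rsad2* held 1. An ISRE core was found in the windows of 17 of 37 members (45.9%) and of 936 of 27025 genes (3.46%). A GAS core was found in 10 of 37 members (27.0%) and 8.13% of all genes. By set, the ISRE core was in 10 of 26 type I windows (38.5%) and 7 of 11 interferon-gamma windows (63.6%), and the GAS core in 4 (15.4%) and 6 (54.5%), among them that of *Psmb8*. The windows of *Ifih1* and *Samd9l*, which were also called in a comparison, held neither core. The matches describe letters in a window and are not binding sites.

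The libraries held 2214073 to 5208405 counts, and values are given as CPM, counts scaled to a common library size with TMM normalization. Livers showed their tissue, with a median of 41538 CPM of *Alb* in vehicle. Of the 47 members, 40 passed the filter on low counts in at least 1 comparison, 38 in all 3, and 30 had 10 or more counts in every library. A pair of libraries in each TAA group stood apart from the other libraries of that group over all genes. Beyond counting noise, the coefficient of variation came to 0.336 to 0.464 between AAV-miR-34b/c 1 or 2 and the other libraries of that group, and 0.0784 to 0.260 among the others. For AAV-GFP 6 and 7 it was 0.259 to 0.384, against 0.124 to 0.251 among the others. Where leaving out such a pair changed a call of a member against vehicle, both values are given.

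ISGs were first compared between livers of AAV-GFP-injected mice and vehicle livers. By edgeR's quasi-likelihood test, with Benjamini-Hochberg adjustment over all genes tested and a threshold of 0.05, 3 of 39 members were called where 12.7% of all genes tested were called. *Rsad2* was higher, and *Ifi27l2a* and *Psmb8* were lower, where 7.54% of all genes were called higher and 5.19% lower. At an unadjusted p under 0.05 the count was 9. The share of all genes at an unadjusted p is not given, here or below. It is at least the share called, here 12.7%. Some libraries of a group differed little beyond counting noise, and with these close pairs summed and taken as 1 sample each, none of the 10 calls described for the 3 comparisons was kept (edgeR adjusted p of 0.0883 to 0.241, with the sign of each log2 fold change as before). *Ifit3*, *Ifit3b*, *Rtp4* and *Samd9l* were also not called without the filter on low counts.

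*Rsad2* encodes viperin, an enzyme that makes a chain-terminating nucleotide (chr12:26442746-26456452, GRCm38). Its CPM was 18.6, 13.5, 16.8, 16.0 and 12.1 in the vehicle libraries, 21.1 to 28.2 with a median of 23.7 in AAV-GFP and 6.76 to 36.9 with a median of 26.8 in AAV-miR-34b/c. All 7 AAV-GFP libraries were above all vehicle libraries, while AAV-miR-34b/c 1 and 2 were below them and the other 5 above. For AAV-miR-34b/c against vehicle the log2 fold change was 0.58 (edgeR adjusted p = 0.215), and 0.90 without libraries 1 and 2 (edgeR adjusted p = 0.00116). The log2 fold change of AAV-GFP against vehicle was 0.65 (standard error 0.18, edgeR adjusted p = 0.0252), and the exact permutation p was 0.00126, the smallest that 5 against 7 libraries allow. The call was lost without vehicle 2, 4 or 5 (adjusted p up to 0.0674, with log2 fold changes of 0.58 to 0.73 over all fits that left out a library). It was also lost with all 3 groups in one fit (0.64, edgeR adjusted p = 0.145) and with close pairs summed (0.71, edgeR adjusted p = 0.0910).

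*Psmb8* encodes a catalytic subunit of the immunoproteasome, which cuts peptides for MHC class I (chr17:34197721-34201454). Its CPM was 70.1, 72.1, 81.1, 71.4 and 74.3 in vehicle, 28.7 to 62.6 (median 45.5) in AAV-GFP and 38.5 to 71.5 (median 53.2) in AAV-miR-34b/c. All AAV-GFP libraries were below all vehicle libraries, and 6 of 7 AAV-miR-34b/c libraries were. *Psmb8* fell by 0.64 on the log2 scale with AAV-GFP (standard error 0.17, edgeR adjusted p = 0.0204), a call kept in 12 of 12 fits without 1 library and lost with close pairs summed (-0.66, edgeR adjusted p = 0.119). With AAV-miR-34b/c the log2 fold change was -0.38 (edgeR adjusted p = 0.0954), and -0.53 without AAV-miR-34b/c 1 and 2 (edgeR adjusted p = 0.00852).

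*Ifi27l2a*, a small membrane protein of the ISG12 family (chr12:103442167-103443680), had 50.8, 16.1, 24.4, 50.6 and 24.2 CPM in vehicle, 7.76 to 33.8 (median 14.5) in AAV-GFP and 6.78 to 31.2 (median 16.6) in AAV-miR-34b/c. The groups overlapped, with 5 of 7 AAV-GFP libraries below all vehicle libraries. With AAV-miR-34b/c the log2 fold change was -0.87 (edgeR adjusted p = 0.0859), and -1.12 without AAV-miR-34b/c 1 and 2 (edgeR adjusted p = 0.0196). It fell by 1.08 with AAV-GFP (standard error 0.34, edgeR adjusted p = 0.0445), a call kept in 3 of 12 fits without 1 library. The call was lost without vehicle 1, 3, 4 or 5 and without AAV-GFP 1, 2, 3, 4 or 5 (log2 fold changes of -1.37 to -0.86 over the 12 fits, adjusted p up to 0.166). It was also lost with at least 10 counts in every library, with library size only and with all 3 groups in one fit.

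**Figure D1:**
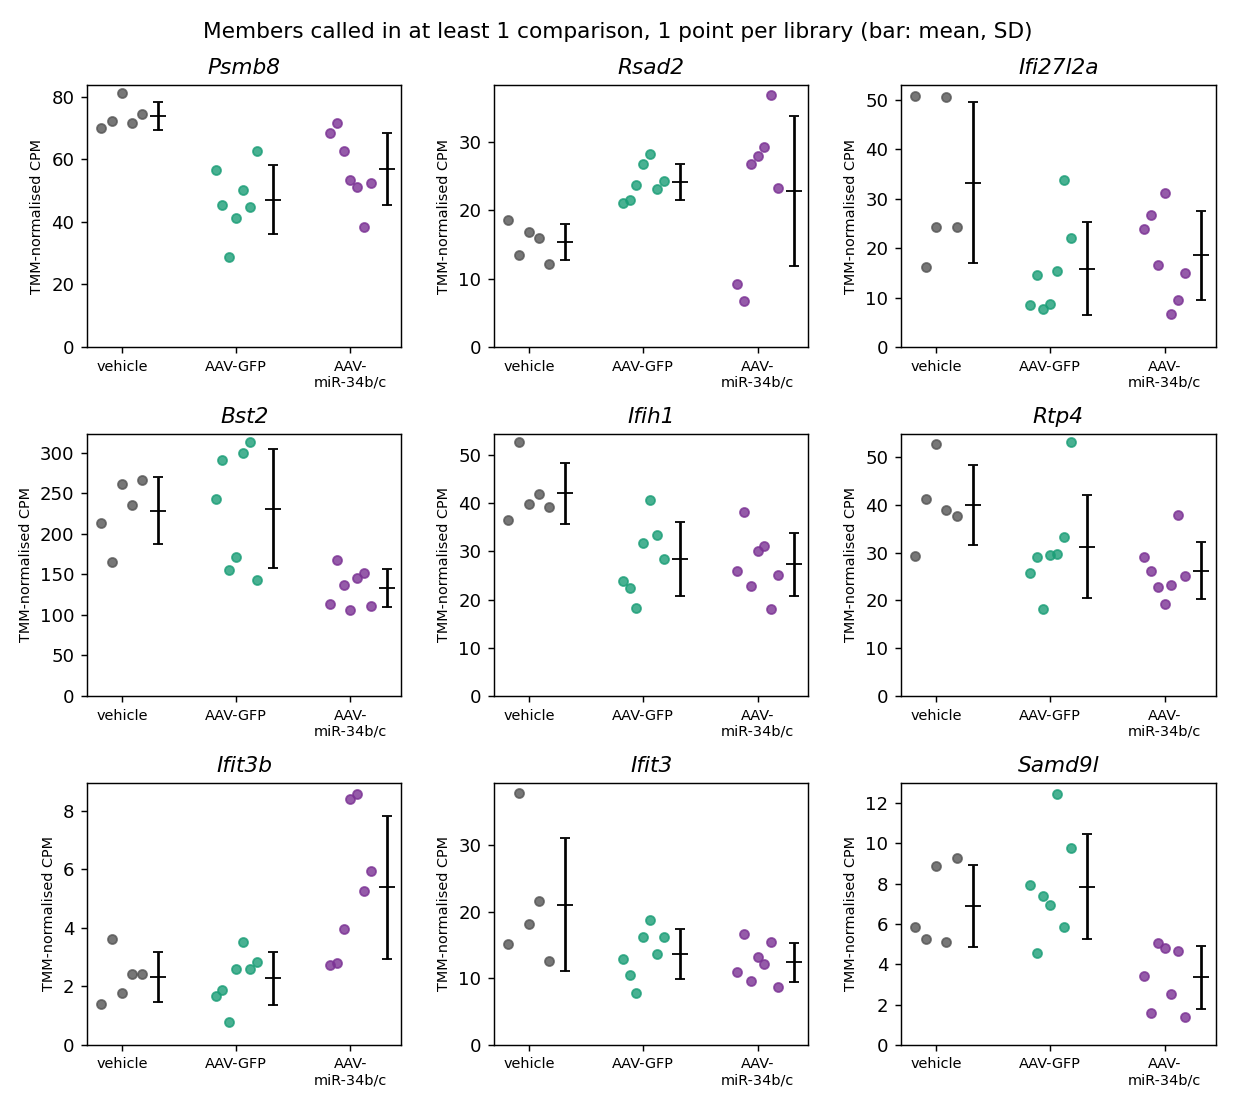
TMM-normalised CPM (linear axis from 0) of the 9 members called in at least 1 comparison, with 1 point per library and the mean with its SD beside each group. All 7 AAV-GFP libraries lay above the vehicle libraries for *Rsad2* and below them for *Psmb8*, and 2 AAV-miR-34b/c libraries lay below the rest for *Rsad2*.

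With AAV-miR-34b/c, 5 of 40 members were called against vehicle, where 21.9% of all genes tested were. *Ifit3b* was higher, where 12.2% of all genes were called higher, and *Bst2*, *Ifih1*, *Rtp4* and *Ifit3* were lower, where 9.75% of all genes were. The *Ifit3b* call rests on a gene that passed the filter on low counts only here, through the group in which it was high. At an unadjusted p under 0.05 the count was 13, where at least 21.9% of all genes pass.

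*Bst2* encodes tetherin, which holds budding virus particles at the cell surface (chr8:71534255-71537456). Its CPM was 213, 166, 261, 236 and 267 in vehicle, 143 to 313 (median 243) in AAV-GFP and 106 to 168 (median 137) in AAV-miR-34b/c. The lower level was seen with AAV-miR-34b/c, where 6 of 7 libraries were below all vehicle libraries, and AAV-GFP libraries lay on both sides of the vehicle range. *Bst2* fell by 0.77 on the log2 scale against vehicle (standard error 0.16, edgeR adjusted p = 0.00377), a call kept in 12 of 12 fits without 1 library and lost with close pairs summed (-0.69, edgeR adjusted p = 0.0883). For AAV-GFP against vehicle the log2 fold change was 0.02 (95% interval -0.45 to 0.49, edgeR adjusted p = 0.966).

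*Ifih1* encodes MDA5, a cytosolic sensor of long double-stranded RNA (chr2:62595798-62646255). Its CPM was 36.6, 52.7, 39.9, 41.9 and 39.2 in vehicle, 18.2 to 40.7 (median 28.4) in AAV-GFP and 18 to 38.2 (median 25.9) in AAV-miR-34b/c. In each TAA group 6 of 7 libraries were below all vehicle libraries. It fell by 0.63 with AAV-miR-34b/c (standard error 0.19, edgeR adjusted p = 0.0240), a call lost without vehicle 2 or 4 or AAV-miR-34b/c 3 (adjusted p up to 0.0623, log2 fold changes of -0.73 to -0.54 over all 12 fits). With AAV-GFP the log2 fold change was -0.56 (edgeR adjusted p = 0.0632), and -0.60 without AAV-GFP 6 and 7 (edgeR adjusted p = 0.0319).

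*Rtp4*, a receptor transporter protein with antiviral activity (chr16:23520291-23614222), had 29.4, 41.2, 52.7, 39.0 and 37.6 CPM in vehicle, 18.2 to 53.1 (median 29.5) in AAV-GFP and 19.2 to 37.9 (median 25.1) in AAV-miR-34b/c. It fell by 0.59 with AAV-miR-34b/c (standard error 0.19, edgeR adjusted p = 0.0354), with 6 of 7 libraries below all vehicle libraries. With AAV-GFP the log2 fold change was -0.35 (edgeR adjusted p = 0.296), and -0.58 without AAV-GFP 6 and 7 (edgeR adjusted p = 0.0273). The call was kept in 4 of 12 fits without 1 library and lost without vehicle 2, 3, 4 or 5 or AAV-miR-34b/c 3, 4, 5 or 7 (log2 fold changes of -0.71 to -0.48, adjusted p up to 0.0942). *Rtp4* overlaps *Masp1* on the opposite strand, which had 5131 counts over all libraries against 1928 for *Rtp4*, and the strand setting of the counting is not given in the sources used here.

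*Ifit3* (chr19:34583531-34588731) and *Ifit3b* (chr19:34607970-34613401) are near-identical copies that encode IFIT proteins, and their calls went opposite ways. *Ifit3* had 15.2, 37.9, 18.2, 21.6 and 12.5 CPM in vehicle, 7.76 to 18.8 (median 13.6) in AAV-GFP and 8.72 to 16.7 (median 12.1) in AAV-miR-34b/c. *Ifit3b* had 1.38, 3.62, 1.77, 2.42 and 2.42 CPM in vehicle, 0.776 to 3.50 (median 2.6) in AAV-GFP and 2.73 to 8.57 (median 5.27) in AAV-miR-34b/c. The groups overlapped for both genes. With AAV-miR-34b/c against vehicle, *Ifit3* fell by 0.77 (standard error 0.26, edgeR adjusted p = 0.0465). *Ifit3b* rose by 1.18 (standard error 0.39, edgeR adjusted p = 0.0391), and it passed the filter on low counts only in this comparison, through the group in which it was high. *Ifit3* lost its call without vehicle 2, 3 or 4 or AAV-miR-34b/c 1, 3, 4, 5 or 7 (log2 fold changes of -0.91 to -0.45, adjusted p up to 0.184), and *Ifit3b* without vehicle 1, 3, 4 or 5 or AAV-miR-34b/c 4, 5, 6 or 7 (1.03 to 1.39, adjusted p up to 0.102).

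The annotated transcripts of the pair were 97.8% identical over 1700 aligned bases, and the last 500 bases of *Ifit3* were 94.6% identical to *Ifit3b*. Of the last 500 bases of *Ifit3b*, 199 could be aligned to *Ifit3*, with 187 identical. How the counting treated reads that match both genes is not given in the sources used here. With the counts of the pair summed, an alternative chosen after seeing the data, the log2 fold change of AAV-miR-34b/c against vehicle was -0.40 (standard error 0.25, edgeR adjusted p = 0.250) and no call remained. *Ifit3b* made up 8.33% to 16.2% of the pair's counts in vehicle (median 8.89%), 9.09% to 16.0% in AAV-GFP (median 15%) and 14.3% to 41.4% in AAV-miR-34b/c (median 29.2%). All vehicle and AAV-GFP libraries were at 16.2% or less, and the AAV-miR-34b/c libraries overlapped them. The pair was singled out after its opposite calls were seen, so that these shares are given with no test.

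**Figure D2:**
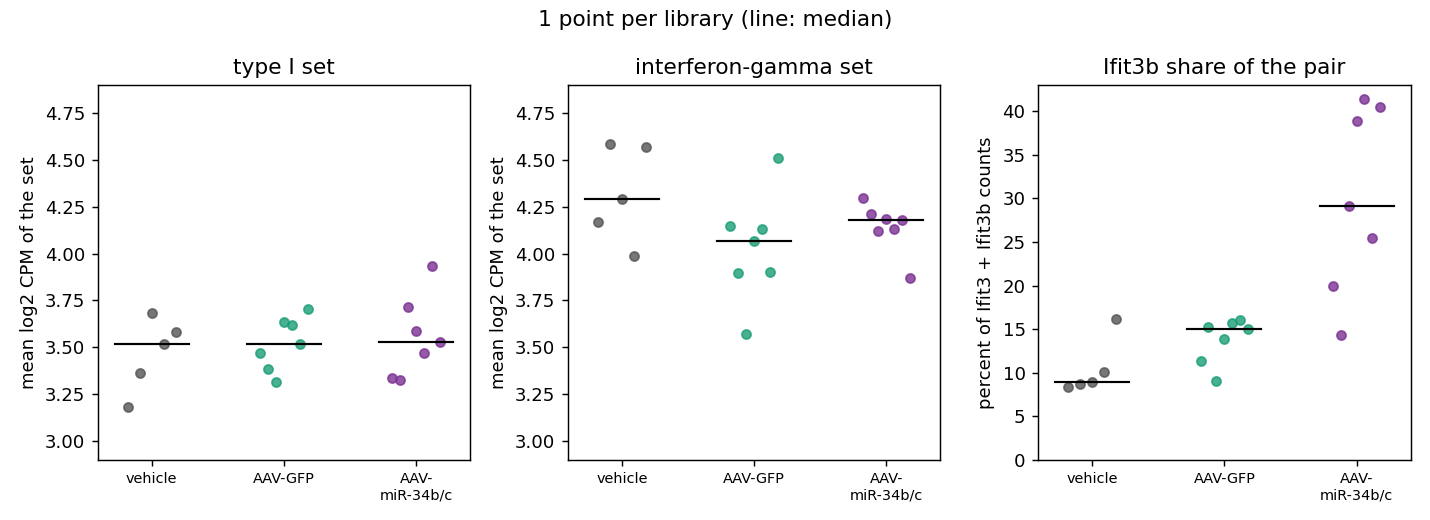
Mean log2 CPM of the type I set and of the interferon-gamma set, and the percent of *Ifit3* and *Ifit3b* counts assigned to *Ifit3b*, with 1 point per library and a line at the median of each group. The set levels overlapped between all groups, and the *Ifit3b* share had medians of 8.89% in vehicle, 15% in AAV-GFP and 29.2% in AAV-miR-34b/c.

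Between the TAA groups, 2 of 38 members were called, both lower with AAV-miR-34b/c, where 3.36% of all genes tested were called (1.95% higher and 1.42% lower). At an unadjusted p under 0.05 the count was 5, where at least 3.36% of all genes pass. *Bst2* fell by 0.81 on the log2 scale against AAV-GFP (standard error 0.20, edgeR adjusted p = 0.0252), with 4 of 7 AAV-miR-34b/c libraries below all AAV-GFP libraries. This call was kept in 8 of 14 fits without 1 library and lost without AAV-GFP 1, 2 or 5 or AAV-miR-34b/c 3, 4 or 7 (log2 fold changes of -0.90 to -0.72, adjusted p up to 0.0673).

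*Samd9l*, an antiviral factor that restrains translation and growth (chr6:3372257-3399572), had 5.87, 5.27, 8.86, 5.09 and 9.29 CPM in vehicle, 4.57 to 12.5 (median 7.37) in AAV-GFP and 1.39 to 5.08 (median 3.41) in AAV-miR-34b/c. All 7 AAV-miR-34b/c libraries were below all vehicle libraries, the highest of them by a small margin, and 4 of 7 were below all AAV-GFP libraries. It fell by 1.21 against AAV-GFP (standard error 0.32, edgeR adjusted p = 0.0391), while the log2 fold change of -0.98 against vehicle missed the threshold (standard error 0.35, edgeR adjusted p = 0.0531). The call against AAV-GFP was kept in 5 of 14 fits without 1 library and lost without AAV-GFP 1, 3, 5 or 7 or AAV-miR-34b/c 1, 2, 4, 5 or 7 (log2 fold changes of -1.34 to -1.05, adjusted p up to 0.104). *Trim30a*, a TRIM protein, came next, with 5.85 to 14.9 CPM (median 11.6) in AAV-GFP and 13 to 18 (median 16.1) in AAV-miR-34b/c (log2 fold change 0.51, edgeR adjusted p = 0.177). In vehicle it had 8.89 to 20.1 CPM (median 14.9). Against vehicle its log2 fold change was -0.45 with AAV-GFP and 0.08 with AAV-miR-34b/c (edgeR adjusted p = 0.232 and 0.824). *Zbp1*, a sensor of Z-form nucleic acids, had a median of 4.87 CPM in AAV-GFP and 7.49 in AAV-miR-34b/c (log2 fold change 0.66, edgeR adjusted p = 0.289).

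**Figure D3:**
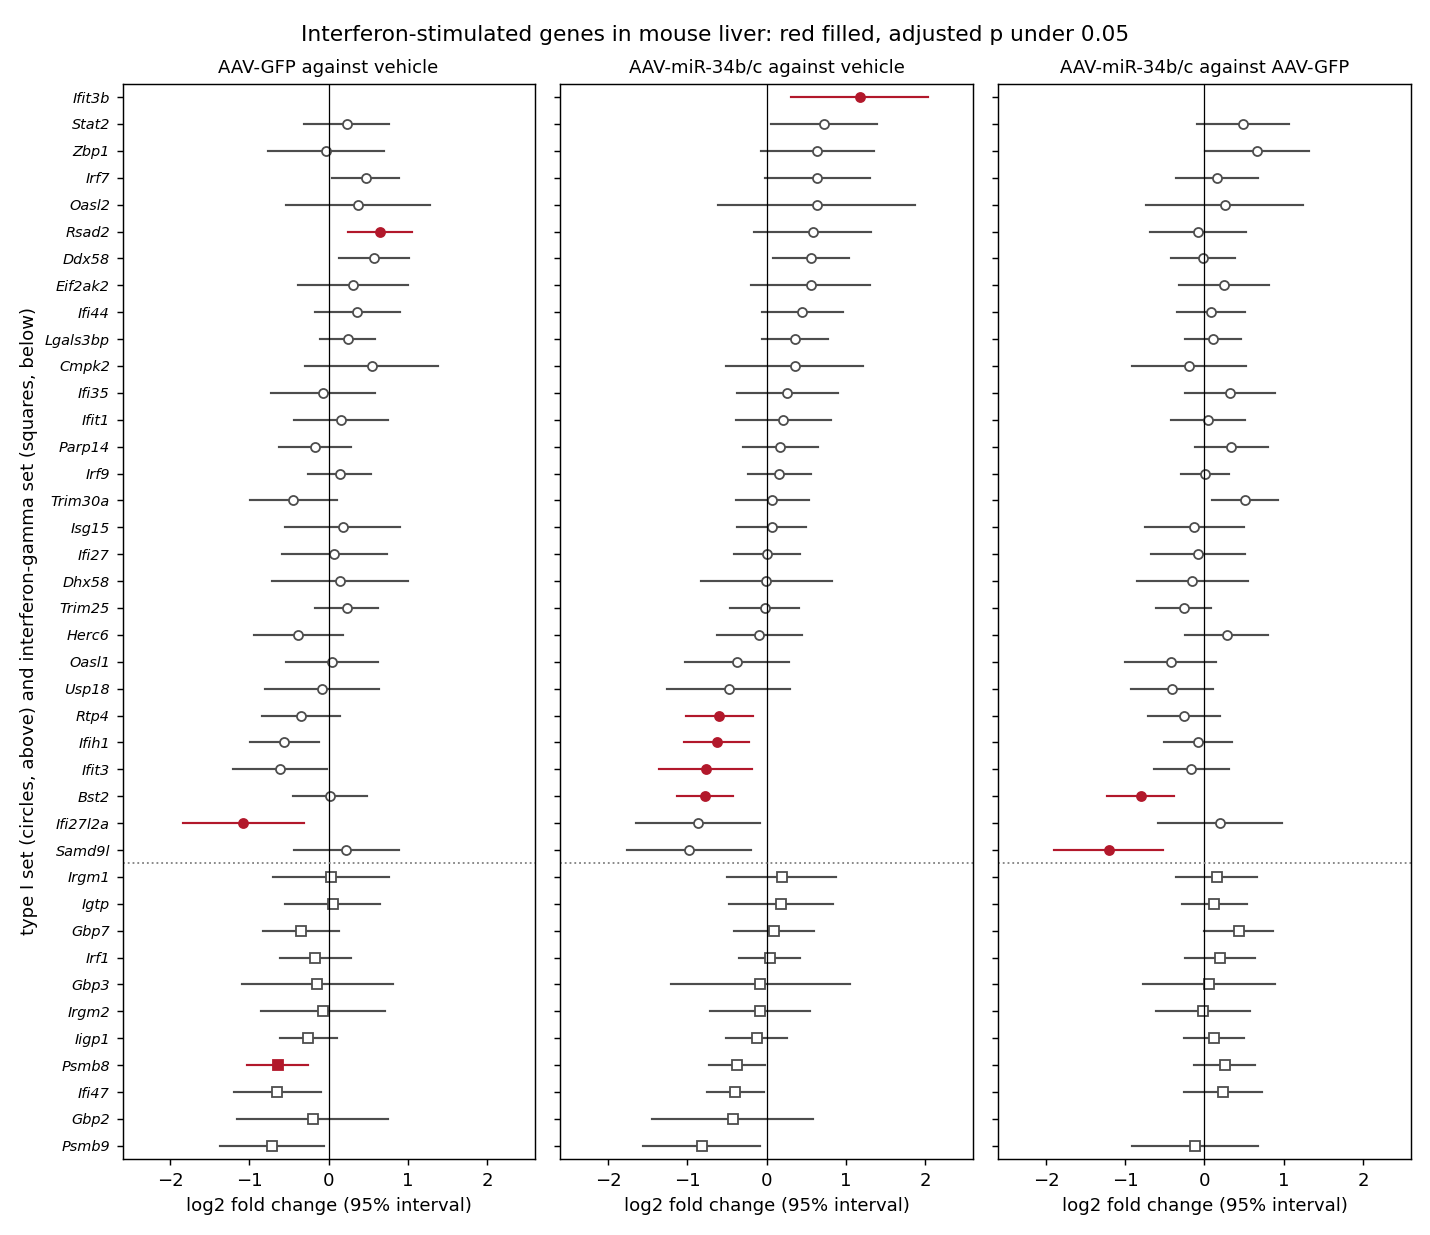
Fitted log2 fold change with its 95% interval for the 40 members tested in at least 1 comparison, in 3 panels, with circles for the type I set, squares for the interferon-gamma set and red filled marks for an adjusted p under 0.05 (edgeR). The 10 calls of 9 members include 2 that are higher, *Rsad2* with AAV-GFP and *Ifit3b* with AAV-miR-34b/c, and most other intervals include 0. *Ifit3b* passed the filter on low counts only through the group in which it was high.

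The pairs of libraries that stood apart moved these counts. Without AAV-GFP 6 and 7, an alternative chosen after seeing the data, 9 of 39 members were called against vehicle by edgeR, where 31.1% of all genes were. Without AAV-miR-34b/c 1 and 2 it was 15 of 37, where 42.6% of all genes were. Of the interferon-gamma set, *Psmb8*, *Psmb9*, *Ifi47* and *Iigp1* were called in each, all lower, which is 4 of 11 and 4 of 10 tested. The shares of 31.1% and 42.6% are for either direction, and the share of all genes called lower or higher in these fits is not given. Both comparisons use the same vehicle libraries. Of the type I set, 2 were higher and 3 lower with AAV-GFP, and with AAV-miR-34b/c 6 were higher and 5 lower. Between the TAA groups, 2 members (*Bst2* lower and *Ifit3b* higher) were called without AAV-miR-34b/c 1 and 2, where 7.54% of all genes were. *Ifit3b* passed the filter on low counts in that fit, and not in the fit of all libraries, through the AAV-miR-34b/c libraries in which it was high. *Bst2* alone was called without AAV-GFP 6 and 7, where 4.16% of all genes were. *Samd9l* was not called in either (edgeR adjusted p = 0.0540 and 0.0600).

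**Figure D4:**
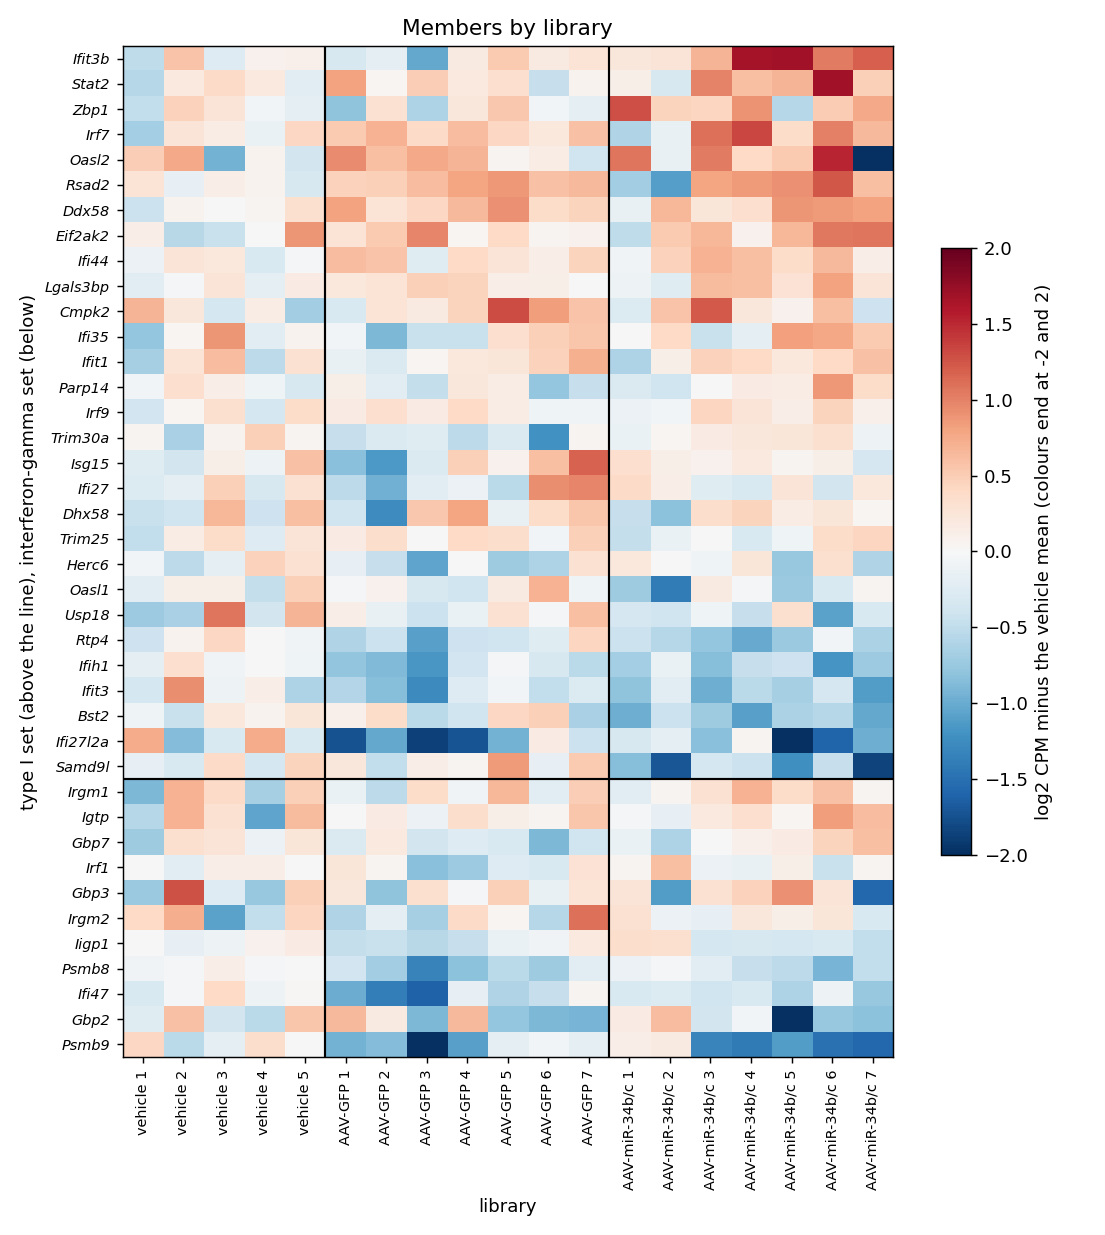
Heat map of the 40 members (rows) in the 19 libraries (columns), coloured by log2 CPM minus the vehicle mean, with lines between the groups and between the sets. AAV-miR-34b/c 1 and 2 differ from the other 5 libraries of their group for *Psmb9*, *Iigp1*, *Rsad2* and *Irf7*.

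Of the 3 transcription factors of the type I set, *Irf7* and *Stat2* gained a call without AAV-miR-34b/c 1 and 2, and *Irf9* did not. *Irf7*, which drives transcription of interferon genes, had 15.2 to 33.1 CPM in vehicle (median 27.5), 28.6 to 40.4 in AAV-GFP (median 35.7) and 16.0 to 63.7 in AAV-miR-34b/c (median 39.0). Its log2 fold change against vehicle was 0.47 with AAV-GFP (edgeR adjusted p = 0.109) and 0.64 with AAV-miR-34b/c (edgeR adjusted p = 0.129), and without AAV-miR-34b/c 1 and 2, at 16.0 and 22.3 CPM, it was 0.90 (edgeR adjusted p = 0.00325). *Stat2*, a subunit of ISGF3, gave 0.73 with AAV-miR-34b/c (edgeR adjusted p = 0.0898), and 0.96 without that pair (edgeR adjusted p = 0.00595). *Irf9*, the DNA-binding subunit of ISGF3, gave 0.14 with AAV-GFP and 0.16 with AAV-miR-34b/c (edgeR adjusted p = 0.636 and 0.532), and without the pairs that stood apart 0.23 and 0.26 (edgeR adjusted p = 0.339 and 0.252). *Irf7* overlaps *Phrf1* on the opposite strand, which had 1111 counts over all libraries against 2106 for *Irf7*. *Irf9* overlaps *Rnf31* on the same strand, which had 233 counts against 2744 for *Irf9*.

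*Isg15* and *Ifit1* were not called in any comparison. *Isg15*, a ubiquitin-like protein joined to other proteins, had 15.8 to 31.1 CPM in vehicle (median 19.1), 8.88 to 47.1 in AAV-GFP (median 21.9) and 16.0 to 25.9 in AAV-miR-34b/c (median 22.3). Its log2 fold change was 0.18 with AAV-GFP (95% interval -0.55 to 0.90) and 0.06 with AAV-miR-34b/c (-0.37 to 0.50). *Ifit1*, which binds RNA with an unmethylated cap, gave 0.15 (-0.44 to 0.75) and 0.21 (-0.39 to 0.81). Increases of up to 0.90 on the log2 scale lie within these intervals. Without AAV-GFP 6 and 7 the sign turned with AAV-GFP for both, to -0.24 for *Isg15* and -0.03 for *Ifit1*. *Usp18*, the protease that removes ISG15, *Herc6*, the ligase that attaches it in mice, and *Trim25*, a ubiquitin ligase acting on RIG-I, had log2 fold changes of -0.48 to 0.23 against vehicle and none was called.

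Among the other sensors, *Ddx58*, which encodes RIG-I, had 11.4, 16.5, 15.5, 16.2 and 19.8 CPM in vehicle, 19.1 to 30.0 (median 21.5) in AAV-GFP and 14.0 to 29.3 (median 25.0) in AAV-miR-34b/c. Of the AAV-GFP libraries, 6 of 7 were above all vehicle libraries, and the log2 fold change of 0.57 just missed the threshold (standard error 0.20, edgeR adjusted p = 0.0595). With AAV-miR-34b/c it was 0.56 (edgeR adjusted p = 0.0704), and without the pair that stood apart it was 0.64 with AAV-GFP (edgeR adjusted p = 0.0238) and 0.65 with AAV-miR-34b/c (edgeR adjusted p = 0.0159). *Ifih1*, the other sensor of the RIG-I family, had the opposite sign in both comparisons. *Dhx58*, which encodes LGP2, gave 0.14 with AAV-GFP and 0.00 with AAV-miR-34b/c.

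Of the OAS family, which makes 2′-5′ oligoadenylates or resembles the enzymes that do, *Oasl1* and *Oasl2* passed the filter and were not called. *Oas1a*, *Oas2*, *Oas3*, the GTPase gene *Mx1*, *Ifit2*, *Xaf1* and *Tgtp1* did not pass it in any comparison. Their highest values in any library were 2.26, 3.65, 3.04, 2.43, 3.99, 4.86 and 1.58 CPM, in that order. *Oas3* had 7 counts in vehicle, 14 in AAV-GFP and 41 in AAV-miR-34b/c. For AAV-miR-34b/c against vehicle, the exact two-sided permutation p, not adjusted over these 7 genes, was 0.0480 for *Oas3* and 0.294 to 0.476 for the others. *Tgtp1* was 100% identical to *Tgtp2* over its last 500 bases. The other effectors that passed the filter were *Cmpk2*, a nucleotide kinase beside *Rsad2*, *Eif2ak2*, which encodes the kinase PKR, *Parp14*, *Lgals3bp*, *Ifi27*, *Ifi35* and *Ifi44*. None of them was called with all libraries, and their log2 fold changes against vehicle ran from -0.17 to 0.56. Without AAV-miR-34b/c 1 and 2, *Lgals3bp* was called higher (0.52, edgeR adjusted p = 0.0109), *Eif2ak2* gave 0.73 (edgeR adjusted p = 0.0727) and *Ifi27* turned from 0.01 to -0.10. Without AAV-GFP 6 and 7, *Ifi27* turned from 0.07 to -0.48 (edgeR adjusted p = 0.0610).

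In the interferon-gamma set, the immunoproteasome gene *Psmb9* stood out by its split. Its CPM was 48.7, 24.7, 31.5, 46.3 and 35.9 in vehicle, 5.82 to 34.8 (median 19.6) in AAV-GFP and 11.9 to 41.3 (median 14.1) in AAV-miR-34b/c. AAV-miR-34b/c 1 and 2 had 39.9 and 41.3 CPM, within the vehicle range, and the other 5 libraries had 16.4 or less, below all vehicle libraries. With all libraries the log2 fold change was -0.71 with AAV-GFP (edgeR adjusted p = 0.111) and -0.82 with AAV-miR-34b/c (edgeR adjusted p = 0.0831), and without that pair it was -1.47 with AAV-miR-34b/c (edgeR adjusted p = 4.78e-05). Without AAV-GFP 6 and 7 it was -0.99 with AAV-GFP (edgeR adjusted p = 0.0132). *Psmb9* overlaps *Tap1* on the opposite strand, which had 1366 counts against 1567 for *Psmb9*.

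The GTPases of the IRG family, which act on vacuoles of intracellular pathogens, included *Iigp1*, with 566 to 709 CPM in vehicle (median 635), 432 to 724 in AAV-GFP (median 465) and 450 to 812 in AAV-miR-34b/c (median 504). AAV-miR-34b/c 1 and 2 were the highest of all 19 libraries at 812 and 795 CPM, and the other 5 were below all vehicle libraries. Its log2 fold change was -0.26 with AAV-GFP (edgeR adjusted p = 0.301) and -0.12 with AAV-miR-34b/c (edgeR adjusted p = 0.636), and without the pairs -0.40 and -0.37 (edgeR adjusted p = 0.0364 and 0.0229). *Ifi47* had 50.1 to 82.0 CPM in vehicle (mean 62.7), 19.8 to 64.5 in AAV-GFP (mean 39.9) and 36.3 to 57.9 in AAV-miR-34b/c (mean 47.4). Its log2 fold change was -0.65 with AAV-GFP (edgeR adjusted p = 0.0856) and -0.40 with AAV-miR-34b/c (edgeR adjusted p = 0.0861), and without the pairs -0.87 and -0.44 (edgeR adjusted p = 0.00809 and 0.0477). *Igtp*, *Irgm1* and *Irgm2* ran from -0.08 to 0.19 against vehicle. *Igtp* and *Irgm2* overlap on the same strand, so that their counts are uncertain.

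*Irf1*, the factor that interferon-gamma induces first, had 39.2 to 50.5 CPM in vehicle (median 45.6), 25.6 to 56.3 in AAV-GFP (median 38.3) and 33.8 to 70.0 in AAV-miR-34b/c (median 47.8), and it was not called. The guanylate-binding protein genes *Gbp2*, *Gbp3* and *Gbp7* ran from -0.43 to 0.10 against vehicle. *Gbp7* gave the smallest unadjusted p of the set between the TAA groups (log2 fold change 0.43, edgeR adjusted p = 0.305).

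As a set, the type I members had a median log2 fold change of 0.14 with AAV-GFP and 0.16 with AAV-miR-34b/c against vehicle, where the medians over all genes tested were -0.01 and 0.02. The interferon-gamma members had medians of -0.20 and -0.08. Without AAV-GFP 6 and 7 the AAV-GFP medians were 0.02 for the type I set and -0.24 for the interferon-gamma set, and without AAV-miR-34b/c 1 and 2 the AAV-miR-34b/c medians were 0.21 and -0.11. Of the type I members tested, 18 of 28 had a positive value with AAV-GFP and 18 of 29 with AAV-miR-34b/c, and of the interferon-gamma members 2 of 11 and 4 of 11 did. Between the TAA groups the medians were 0.00 for the type I set and 0.14 for the interferon-gamma set. The mean log2 CPM of the type I set was 3.47 ± 0.20 (SD, n = 5) in vehicle, 3.52 ± 0.14 (n = 7) in AAV-GFP and 3.56 ± 0.22 (n = 7) in AAV-miR-34b/c. That of the interferon-gamma set was 4.32 ± 0.26, 4.03 ± 0.29 and 4.14 ± 0.13. The groups overlapped for both sets, and no test of a set was made.

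The interferons themselves were near or below detection. *Ifnb1*, *Ifna1*, *Ifna2*, *Ifna4*, *Ifna5*, *Ifne*, *Ifnl2* and *Ifnl3* had 0 counts in all 19 libraries, which allows up to 0.0496 CPM over all libraries (3 counts, counting error only). *Ifng* had 3 counts in 2 libraries and *Ifnk* 4 counts in 1. *Tlr9*, the endosomal sensor of unmethylated CpG DNA, *Tlr8*, *Trex1* and *Ifi44l* had 0 counts as well. Whether a count of 0 came from absent RNA or from the annotation and counting was not tested.

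Of 11 receptor and JAK-STAT genes tested, 1 was called with AAV-GFP against vehicle and 4 with AAV-miR-34b/c, and none between the TAA groups, where 12.7%, 21.9% and 3.36% of all genes were. At an unadjusted p under 0.05 the last count was 2. *Socs3*, a feedback inhibitor of cytokine receptors, was higher with both vectors, by 1.11 (standard error 0.27, edgeR adjusted p = 0.0129) and 1.55 (standard error 0.35, edgeR adjusted p = 0.00660), and *Stat3* was higher with AAV-miR-34b/c by 1.26 (standard error 0.17, edgeR adjusted p = 0.000164). With AAV-GFP the log2 fold change of *Stat3* was 0.80 (edgeR adjusted p = 0.0863). The receptor genes *Ifnar1* and *Ifngr1* fell by 0.90 and 0.75 with AAV-miR-34b/c (edgeR adjusted p = 0.0132 and 0.0173). With AAV-GFP their log2 fold changes were -0.04 and -0.61 (edgeR adjusted p = 0.935 and 0.0793). *Ifnar1* had 8.96 to 12.1 CPM in vehicle, 4.42 to 17.3 in AAV-GFP and 3.49 to 6.41 in AAV-miR-34b/c, where all libraries were below all vehicle libraries.

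Of 15 nucleic acid sensing genes tested against vehicle, 2 were called with AAV-GFP (*Mndal* higher by 0.70 and *Irf5* lower by 0.89 on the log2 scale) and 3 with AAV-miR-34b/c (*Mavs*, *Irak4* and *Irf3* higher by 0.91, 0.90 and 0.74). Of all genes, 12.7% were called with AAV-GFP, and 12.2% were called higher with AAV-miR-34b/c. With AAV-GFP the log2 fold changes of *Mavs*, *Irak4* and *Irf3* were 0.54, 0.35 and 0.38 (edgeR adjusted p = 0.146, 0.362 and 0.195). *Mavs* is the adaptor of RIG-I and MDA5. Of 16 tested between the TAA groups none was called by edgeR, and 1 had an unadjusted p under 0.05.

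Of the other interferon targets, 3 of 35 were called with AAV-GFP against vehicle, where 12.7% of all genes were, *Pml* higher by 0.99 and *Trim34a* and *Ddx60* lower by 1.34 and 0.96. With AAV-miR-34b/c it was 5 of 34, with *Isg20*, *Ly6e*, *Pml* and *Ifitm2* higher and *Trim34a* lower, where 21.9% of all genes were. *Isg20* passed the filter on low counts in this comparison alone, through the group in which it was high. *Ly6e*, a membrane protein that is also a receptor partner in other tissues, had 170 to 387 CPM in vehicle, 263 to 928 in AAV-GFP and 596 to 1520 in AAV-miR-34b/c, with a log2 fold change of 1.65 against vehicle (standard error 0.26, edgeR adjusted p = 0.000641). Between the TAA groups, 2 of 34 were called, both higher with AAV-miR-34b/c, where 3.36% of all genes were called. They were *Ifitm2* (0.93, standard error 0.21, edgeR adjusted p = 0.0172) and *Ifitm3* (0.57, standard error 0.15, edgeR adjusted p = 0.0389), which encode membrane proteins that block virus entry.

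Whole livers were sequenced, so that fewer cells of a type and less RNA per cell cannot be told apart. Markers of T and NK cells summed to 4.28 to 11.3 CPM over all libraries for 15 genes, and the defining *Cd3e* had 1 count in vehicle, 5 in AAV-GFP and 7 in AAV-miR-34b/c. B cell markers summed to 7.15 CPM or less. Of 12 markers of Kupffer cells and macrophages, 5 were called lower with AAV-GFP against vehicle (*Timd4*, *Vsig4*, *Clec4f*, *Cd5l* and *Adgre1*), where 5.19% of all genes were called lower, and 7 were not called. Of the 12, 11 had a negative log2 fold change, with a median of -0.62. The count was 2 of 12 with AAV-miR-34b/c (*Adgre1* and *Timd4*, both lower), where 9.75% of all genes were called lower. Between the TAA groups, 2 of 11 were called, *C1qb* and *Cd5l*, both higher with AAV-miR-34b/c, where 1.95% of all genes were called higher. The 12 genes summed to 534 to 1017 CPM in vehicle (median 848), 444 to 724 in AAV-GFP (median 612) and 652 to 895 in AAV-miR-34b/c (median 775). Plasmacytoid dendritic cell markers summed to medians of 53.6, 65.5 and 66.9 CPM, and the defining *Siglech* had 3, 10 and 7 counts. Infiltrating monocyte markers summed to medians of 34.6, 22.1 and 24.8 CPM, and *Plac8* of that list was called lower with AAV-GFP against vehicle (-1.01, edgeR adjusted p = 0.0225). Hepatocyte markers summed to medians of 84896, 76198 and 91551 CPM. Of 10 hepatocyte markers, 1 was called with AAV-GFP against vehicle (*Hnf4a*, higher by 0.86), 5 with AAV-miR-34b/c (*Hnf4a*, *Fgb* and *Serpina1a* higher, *Cps1* and *Cyp2e1* lower), and 2 between the TAA groups (*Fgb* higher and *G6pc* lower), where 12.7%, 21.9% and 3.36% of all genes were. The part of these cells in the ISG values was not tested.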

How the data were processed

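Polyadenylated RNA of 19 livers was sequenced from the 3′ end (single-end, 100 bases). The authors deposited raw read counts per gene, not normalized, made by quality filtering, trimming, alignment and counting, and the submitters' processing notes name STAR and mm10. The annotation release, whether strand was used, and any molecular identifiers are not given in the sources used here, so PCR duplicates may be counted and intervals cover the spread between libraries only. Separate mice are labelled as biological replicates. Libraries held 2214073 to 5208405 counts, and 0 columns of other samples were present.

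Counts were tested with edgeR 4.0.16 in R 4.3.3 (TMM, filterByExpr with a minimum count of 10 and total of 15, glmQLFit, glmQLFTest), with the 2 groups compared in each fit, Benjamini-Hochberg adjustment over all genes tested and a threshold of 0.05. The procedure was tested on simulated data. CPM used TMM factors over all 19 libraries, log2 CPM a prior count of 2, and 95% intervals the t distribution. Single members also had two-sided exact permutation tests over libraries, which were not adjusted. Symbols matched 30934 of 31053 genes through GENCODE for GRCm38.

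Members, sets and other lists were chosen with earlier results of these data known. Members called in a comparison, and the 4 with the smallest adjusted p in each, were named with their libraries' values. Of the other lists, called genes were counted and the 3 with the smallest adjusted p considered first. *Tlr9*, *Ifnb1* and *Ifng* were named whatever their values, and *Irf7*, *Psmb9*, *Iigp1*, *Ifi47*, *Oas3*, *Ly6e* and the marker genes *Cd3e* and *Siglech* were described after their values were seen. Alternatives were no filter, at least 10 counts in every library, DESeq2 1.42.0 size factors, library size only, the DESeq2 Wald test, limma-voom 3.58.1 with quality weights, each library left out, a block for the replicate number, a joint fit of the 3 groups and libraries of close pairs (coefficient of variation under 0.2) summed to 1 sample. Chosen after seeing the data were the sum of *Ifit3* and *Ifit3b* and leaving out libraries with a median coefficient of variation over 0.3 to their group.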

Additional observations from a re-analysis of the deposited data

Results flagged for a closer look

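Each group of libraries was examined for 1 library far from the rest of its group, for the 40 members tested in at least 1 comparison and for the levels of both sets. Of 126 such groups, 4 had one, where chance gives about 6.3 (1 in 20). *Ifit1* was low in AAV-miR-34b/c library 1, at 2.96 log2 CPM with the next library at 3.69. *Isg15* was low in AAV-miR-34b/c library 7, at 4.06 log2 CPM with the next at 4.46. *Psmb9* was low in AAV-GFP library 3, at 2.69 log2 CPM with the next at 4.12. The mean log2 CPM of the interferon-gamma set was low in AAV-miR-34b/c library 7, at 3.87 with the next at 4.12. None of the 9 members called in a comparison had such a library. The rule sets the gap between the outermost library and the next against the range. It can therefore miss 2 libraries that lie apart together, as AAV-miR-34b/c 1 and 2 did for *Rsad2*.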

How the results depend on the processing

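For AAV-GFP against vehicle, the 3 members called became 5 with the DESeq2 Wald test (16.4% of all genes), 9 with limma-voom (28.2%), 1 with all 3 groups in one fit (10.6%), 0 with close pairs summed (2.26%, 6 members at an unadjusted p under 0.05) and 9 without AAV-GFP 6 and 7, and 1 to 5 without single libraries. For AAV-miR-34b/c against vehicle, the 5 became 2 without the filter (11.7% of all genes), 9 with library size only (25.3%), 17 with limma-voom (41.3%), 0 with close pairs summed (3.12%, 6 members at an unadjusted p under 0.05) and 15 without AAV-miR-34b/c 1 and 2, and 1 to 9 without single libraries. Between the TAA groups, the 2 became 1 without the filter (1.92% of all genes), 1 with at least 10 counts in every library (4.20%), 3 with all 3 groups in one fit (4.4%), 0 with close pairs summed (0.832%, 7 members at an unadjusted p under 0.05) and 1 without AAV-GFP 6 and 7, and 0 to 2 without single libraries. Summing close pairs left 3 samples of vehicle, 6 of AAV-GFP and 4 of AAV-miR-34b/c. Library size only set the median log2 fold change of all genes at -0.20 between the TAA groups, and at -0.13 when AAV-miR-34b/c was set against vehicle. The cause of the other shifts was not tested. Without single libraries, the median of the type I set ran from 0.03 to 0.22 with AAV-GFP and 0.06 to 0.21 with AAV-miR-34b/c against vehicle, and that of the interferon-gamma set from -0.35 to -0.14 and -0.23 to -0.01.

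The replicate numbers did not pair the libraries, since deviations of same-numbered libraries correlated at -0.28 to 0.28 and 10 of 17 such pairs were negative. With the replicate number as a block, 11, 1 and 1 members were called in the 3 comparisons, where 32.9%, 10.2% and 1.53% of all genes were, and *Ifi27* with AAV-GFP turned from 0.07 to -0.47 (edgeR adjusted p = 0.0345). Vehicle has no library 6 or 7, so libraries 6 and 7 of a TAA group add nothing to the blocked contrast against vehicle. With no block and AAV-GFP 6 and 7 left out, 31.1% of all genes were called, so blocking and the loss of these libraries cannot be told apart.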
